A study of Bos taurus with 4 samples.

Results

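The proteasome and the ubiquitin-conjugating enzymes were examined in subcutaneous adipose tissue of Chinese Qinchuan cattle, as 63 of the 36373 UniGene sequences that carried read counts (a UniGene entry is a cluster of transcripts with 1 sequence standing for it). Members were chosen by name: the entry's description had to contain "proteasome" or "ubiquitin-conjugating enzyme", and expressed sequence tags with no gene name were left out. The 63 entries carried 61 different gene symbols and fell into 5 core subunits, 2 immunoproteasome subunits, 20 subunits of the regulatory cap, 5 activators or assembly factors, 29 conjugating enzymes and 2 proteins that bind conjugating enzymes. Animals were pooled, and 4 pools were sequenced, each from 5 animals and as 1 library: fetuses of 200 to 250 days (ATFB), intact adult males (bulls, ATAB), adult females (heifers, ATAH) and castrated adult males (steers, ATAS), with an adult age of 18 to 24 months in the labels. There was no replicate of any group, so each difference given here is one between libraries and has no replicate check, and each sex or castration status was seen in 1 adult pool.

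Proteins are marked for destruction by a cascade in which an activating enzyme (E1) passes ubiquitin to a conjugating enzyme (E2), which hands it to a substrate with the help of a ligase (E3). The proteasome then degrades the marked protein: its barrel-shaped core holds the catalytic sites, the cap recognizes, unfolds and feeds in the substrate, and other activators can take the place of the cap. In cells exposed to interferon, catalytic beta subunits of the core are replaced by the immunoproteasome subunits PSMB8, PSMB9 and PSMB10, which alters the peptides made for antigen presentation, and the activator of PSME1 and PSME2 is induced as well.

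The catalytic sites are shown because they carry the activity of these enzymes and show how alike related members are. In the beta subunits the catalytic residue is the first threonine of the mature protein, and the 30 bases from its codon are given 5′ to 3′ from the deposited sequences, with that codon in capitals.
PSMB5: ACCaccaccctggccttcaagtttcgccat
PSMB8: ACGaccacgctggccttcaagttccagcat
PSMB10: ACCaccattgcaggccttgtgttccaagac
PSMB8 takes the place of PSMB5 in the immunoproteasome, and the stretches of these genes had 25 of 30 bases in common, against 15 of 30 for PSMB5 and PSMB10.

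In most conjugating enzymes the cysteine that carries ubiquitin follows a short histidine-containing motif. The coding frame of each entry was searched for a histidine codon followed by a proline or cysteine codon and an asparagine or glutamine codon, with a cysteine codon after 7 to 12 further codons. It was found in 20 of the 29 conjugating enzyme entries and in 1.93% of the 12228 entries with an annotated coding frame. The stretches of 4 enzymes that were called between libraries, and of UBE2D2 for comparison, are given with the cysteine codon in capitals.
UBE2D2: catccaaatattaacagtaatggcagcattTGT
UBE2D3-like: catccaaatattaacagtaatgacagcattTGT
UBE2E1: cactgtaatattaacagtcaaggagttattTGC
UBE2H: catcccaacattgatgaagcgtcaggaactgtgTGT
UBE2R2: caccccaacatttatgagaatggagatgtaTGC
Between UBE2D2 and the UBE2D3-like entry 32 of 33 bases were the same, and the difference was G23A, counted from 1 at the 5′ end of the stretch with the base of UBE2D2 first. UBE2E1 shared 22 of 33 bases with UBE2D2.

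The counted reads numbered 15.3M (M, mega) in ATFB, 16.1M in ATAB and 15.6M in each of ATAH and ATAS, and the members took 0.481%, 0.376%, 0.414% and 0.388% of them. A total of 59 members had at least 100 reads over the 4 libraries. In each library 55 to 57 members had as many reads there, and their median share of the sequence covered by reads was 93.2% to 94.7%. Stretches of 75 bases shared with another entry, where a unique alignment to these sequences may fail to place reads, made up over 10% of the sequence in 18 members and were absent in 34. The 10 adipocyte markers found (of 12 listed) had reads in every library, and their summed level was 1192 RPKM in ATFB against 9457 to 13210 RPKM in the adult libraries. In whole tissue, fewer cells of a type and less RNA per cell cannot be told apart. Markers of some other cell types lay apart between the stages: red cell markers summed to 2526 RPKM in ATFB, of which 2365 RPKM were HBG2, and to 98.9 to 122 RPKM in the adults, fibroblast markers to 11210 RPKM against 2304 to 7762 RPKM, and cycling markers to 216.5 RPKM against 102.6 to 138 RPKM, although MKI67 of that list was called higher in ATAB. Of the 10 red cell markers found, HBG2, ALAS2 and EPB42 were called lower in each adult library, while TFRC and ANK1 were called higher in each and XPO7 higher in ATAS. Endothelial markers (588 RPKM in ATFB and 447 to 842 in the adults) and skeletal muscle markers (3.81 and 1.51 to 4.96) had sums with ATFB within the adult range. Single endothelial genes did not: 3 of 7 were lowest and 2 of 7 highest in ATFB, with VWF called higher in each adult library and EMCN called lower in ATAB and ATAH. The part of these cell types in the results below was not tested.

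Between ATFB and the adult libraries, the activator genes PSME1 and PSME2, the core gene PSMA6 and the conjugating enzymes UBE2D3-like and UBE2E1 stood highest in ATFB, while the conjugating enzymes UBE2H, UBE2D4, UBE2O and UBE2R2 stood lowest there. An entry was called when an exact two-sided binomial test on the reads of 2 libraries, given the library totals, had a Benjamini-Hochberg adjusted p (FDR) of 0.001 or less over all entries and the RPKM (reads scaled to sequence length and library size) differed by a log2 ratio of at least 1. By this rule 14 of the 63 members were called in at least 1 of the 6 comparisons, and all 14 had at least 100 reads. They were 3 core subunits, 1 immunoproteasome subunit, 1 cap subunit, 2 activators, 6 conjugating enzymes and 1 E2-binding protein. The share of all entries called in at least 1 comparison is not given here, so the 14 cannot be set against a background. Shares by comparison follow.

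Between ATFB and ATAB, 2 of 62 members tested were called higher in ATAB and 7 lower, against 9.51% of all entries called higher and 13.1% called lower. In ATAH 2 of 62 were called higher and 4 lower than in ATFB, beside 13.9% and 9.83% of all entries. In ATAS 4 of 63 were called higher and 5 lower, beside 15.5% and 10.5%. Members were better covered than the average entry, and among all entries with at least 100 reads the shares called were larger, between 14% and 24.8% in each direction of these 3 comparisons. With library totals, the share of members called was below both of these shares in each direction. Without the fold, 62.9%, 59.7% and 73.0% of members in ATAB, ATAH and ATAS had an FDR of 0.001 or less against ATFB, beside 58.3%, 60.7% and 63.9% of entries with at least 100 reads, so the lower share of calls came with the fold. With TMM factors in place of the library totals, the split between higher and lower calls was 3 and 5 in ATAB, 2 and 7 in ATAH and 4 and 9 in ATAS, and with ACTB as the scaling gene it was 1 and 10, 1 and 9, and 2 and 11. Over both directions, 7338 of 34096, 8200 of 34589 and 9012 of 34474 entries were called with TMM factors. With ACTB these counts over all entries were 8401, 8443 and 9082. The scaling also moved the typical entry: the median log2 ratio to ATFB over 18566 to 18580 entries with at least 100 reads was -0.11, 0.14 and 0.18 for ATAB, ATAH and ATAS with library totals, and 0.06, 0.04 and 0.06 with TMM factors.

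Most members varied less over the libraries than the typical entry, though this was not tested. The highest RPKM of the 4 libraries was 1.48 times the lowest at the median of the 59 members with at least 100 reads, against 2.20 times over all entries with as many reads. The ratio stayed under 2 in 45 of 59 members (76.3%) and in 42.7% of those entries. It was 1.36 for the cap, 1.46 for the conjugating enzymes, 2.19 for the core and 2.58 for the activators and the assembly chaperone. With TMM factors the medians were 1.56 for the members and 2.13 for all entries. Counting error widens the range at low depth, and most members were deeply read. With library totals and at least 1000 reads, the medians were 1.49 for 52 members and 1.95 for all entries. Of these, 78.8% of members and 52.3% of entries stayed under 2. ATFB held the highest level in 33 of the 59 members (29 with TMM factors) and in 36.6% of the entries with at least 100 reads.

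**Figure D1:**
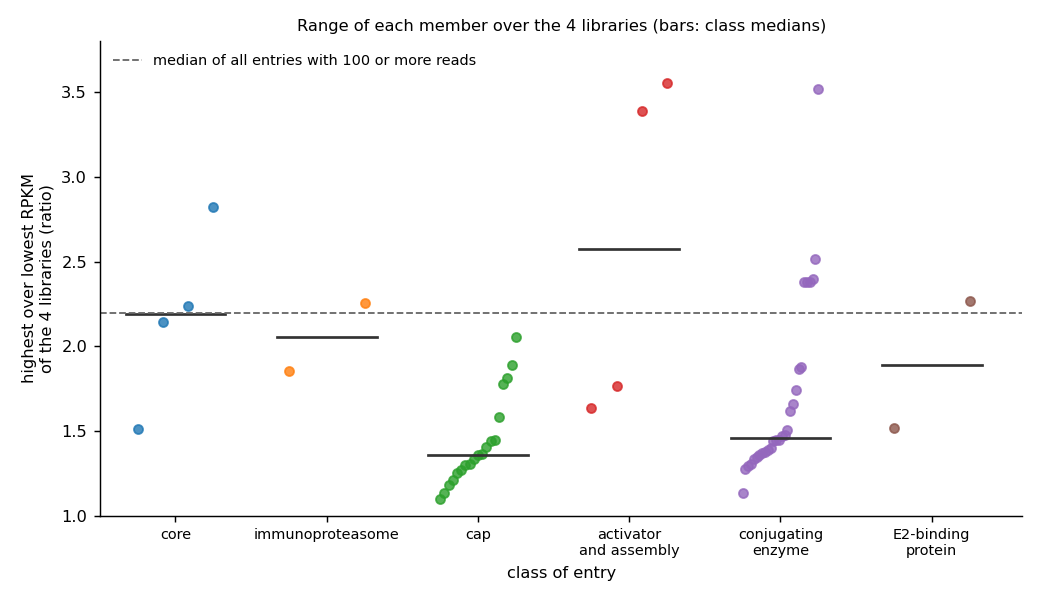
Highest over lowest RPKM of the 4 libraries (linear ratio, vertical axis) for each member with at least 100 reads, by class; each point is 1 entry, bars are class medians, and the dashed line is the median of all entries with at least 100 reads. The cap points lie between 1.10 and 2.05, and PSME1, PSME2 and UBE2H lie above 3.

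Among the core subunits, PSMB1, a beta subunit without a catalytic site, had the highest level, at 324 RPKM in ATFB and 215, 228 and 217 in the bull, heifer and steer libraries. It was highest in ATFB, but no comparison reached the fold needed for a call (log2 ratios of -0.59, -0.51 and -0.58 to ATFB). PSMA6, an alpha subunit of the outer ring, had 213 RPKM in ATFB against 78.7, 94.2 and 75.6 in ATAB, ATAH and ATAS. It was called lower in each adult library, with log2 ratios of -1.44, -1.18 and -1.50 (FDR = 1.05e-217, 6.8e-157 and 4.58e-226, exact binomial test). PSMA2, another alpha subunit, followed a like order with 36.6, 18.8, 23.6 and 17.0 RPKM. It was called lower in ATAS only (log2 ratio -1.10), and at -0.96 and -0.63 in ATAB and ATAH it did not reach the fold, though the ATAB call was made with ACTB as the scaling gene. Another entry held 42.5% of the 75-base windows of PSMA2, so its count may be incomplete. PSMB5, which carries the chymotrypsin-like site of the constitutive core, gave another order, with 69.96 RPKM in ATFB and 69.7, 50.5 and 31.3 in the bull, heifer and steer libraries. ATFB and ATAB were near equal (log2 ratio -0.01, 95% counting interval -0.11 to 0.10), and it was called lower in ATAS than in ATFB, at -1.16 (FDR = 5.1e-71), and than in ATAB, at -1.16 (FDR = 2.02e-71). PSMB11, the core subunit of thymic epithelium, had 0 reads in ATFB, ATAB and ATAH and 2 in ATAS, and 0 reads allow a level of up to 0.151 to 0.160 RPKM in those 3 libraries at a floor of 3 reads. The summed level of these 5 core entries was 644 RPKM in ATFB and 341 to 396 RPKM in the adult libraries. Other subunits of the core had no entry among the members, so values for this class describe only part of the core.

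The immunoproteasome subunits PSMB8 and PSMB10 stood lowest in ATAB and highest in ATAS. PSMB8 had 45.2 RPKM in ATFB and 28.8, 48.2 and 64.9 in the bull, heifer and steer libraries. PSMB10 had 40.3, 31.1, 45.2 and 57.6 RPKM. Both thus had the same order of libraries, and their levels stayed close to each other. PSMB8 was called higher in ATAS than in ATAB, with a log2 ratio of 1.18 (interval 1.02 to 1.33, FDR = 2.18e-56, exact binomial test). This call rested on the scaling, since the ratio was 0.88 with TMM factors and 0.87 with DESeq2 size factors. PSMB10 differed in the same comparison by 0.89, below the fold. Against ATFB neither gene was called, with log2 ratios between -0.65 and 0.52, and the small differences of ATAH from ATFB (0.09 and 0.17) changed sign with ACTB as the scaling gene, that of PSMB8 also with TMM and DESeq2 factors. PSMB9 was not analysed here. Since PSMB5 and PSMB8 are alternative subunits of one position, their levels per length were set side by side after their values had been seen. PSMB8 had 0.65 times the RPKM of PSMB5 in ATFB (95% counting interval 0.59 to 0.70), 0.41 times in ATAB (0.37 to 0.46), 0.95 times in ATAH (0.87 to 1.04) and 2.08 times in ATAS (1.89 to 2.29). In ATAS the inducible subunit therefore stood above the constitutive one, in ATAH the intervals did not separate them, and in ATFB and ATAB it stood below.

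The activators and their assembly chaperone had the largest median range of the classes with library totals (2.58 against 2.19 for the core), whereas with TMM factors the core was ahead (2.53 against 2.42). PSME1, the alpha subunit of the interferon-inducible activator, had 189.7 RPKM in ATFB and 56.0, 57.5 and 80.4 in the bull, heifer and steer libraries. PSME2, its beta subunit, had 157 RPKM in ATFB and 44.3, 58.2 and 73.1 in the bull, heifer and steer libraries. Both were called lower in each adult library: the log2 ratios to ATFB were -1.76, -1.72 and -1.24 for PSME1 (FDR = 3.71e-294, 2.89e-279 and 1.16e-170) and -1.83, -1.43 and -1.11 for PSME2 (FDR = 2.3e-192, 9.19e-133 and 1.25e-88, exact binomial test). The partners stayed near equal, with PSME1 at 1.21 times the RPKM of PSME2 in ATFB and 1.27, 0.99 and 1.10 in the bull, heifer and steer libraries. PSME4, a single-chain nuclear activator, went the other way, with 7.504 RPKM in ATFB and 10.5, 13.2 and 10.5 in the adult libraries, and was not called (log2 ratios 0.48, 0.82 and 0.49). PSMG1, a chaperone of core assembly, had 47.0, 28.8, 31.1 and 30.1 RPKM, with ratios of -0.71, -0.60 and -0.65 below the fold. The PSME1-like entry LOC782521 had 2 reads in ATFB and 2 in ATAS and 0 in the other libraries, and its levels cannot be compared at this depth. At the summed level the class had 402 RPKM in ATFB and 139.5 to 194 RPKM in the adult libraries.

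The cap had the smallest median range. Of its 20 entries, 19 had at least 100 reads, and 18 of these 19 kept the highest library under 2 times the lowest. The ATPase subunit PSMC3 had the highest level, at 136 RPKM in ATFB and 100.4, 113 and 101.5 in the bull, heifer and steer libraries. PSMD2, a large scaffold subunit of the cap base, had the smallest range, with 85.2, 90.5, 87.6 and 82.4 RPKM, followed by the ATPase PSMC2 with 95.9, 95.7, 96.0 and 84.8 RPKM. PSMD9, a chaperone that takes part in building the cap base, was the only cap member called, with 37.2 RPKM in ATFB and 18.1, 20.97 and 22.2 in ATAB, ATAH and ATAS. It was called lower in ATAB (log2 ratio -1.04, FDR = 8.5e-25), a call that was lost with TMM factors at -0.86. The ATPases PSMC1, PSMC4 and PSMC5 and the non-ATPase PSMD1 differed from ATFB by a log2 ratio of at most 0.26 in size in any adult library. PSMD14, the deubiquitinating subunit of the cap, had 33.9, 27.1, 32.2 and 19.1 RPKM and PSMC6 34.0, 24.0, 26.5 and 18.8 RPKM, with ATAS lowest and no call, though in ATAS PSMD14 was called lower with ACTB as the scaling gene and PSMC6 with ACTB and with DESeq2 size factors. PSMD3, PSMD5, PSMD6, PSMD11, PSMD12 and PSMD13 had log2 ratios to ATFB between -0.66 and 0.53. Where a symbol had a further entry, that entry was low: PSMD4 had 1049 to 1397 reads per library in one entry and 2 to 7 in the other, and PSMD8 had 554 to 1029 in one and 32 to 40 in the other. The entries of PSMD8 shared 774 of their 75-base windows, so their counts may not be fully separated. The abundant PSMD8 entry had log2 ratios to ATFB of -0.39, -0.74 and -0.92, and was called lower in ATAS with TMM factors, DESeq2 size factors and ACTB. The summed level of the cap was 979 RPKM in ATFB and 884, 965 and 829 in the bull, heifer and steer libraries.

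**Figure D2:**
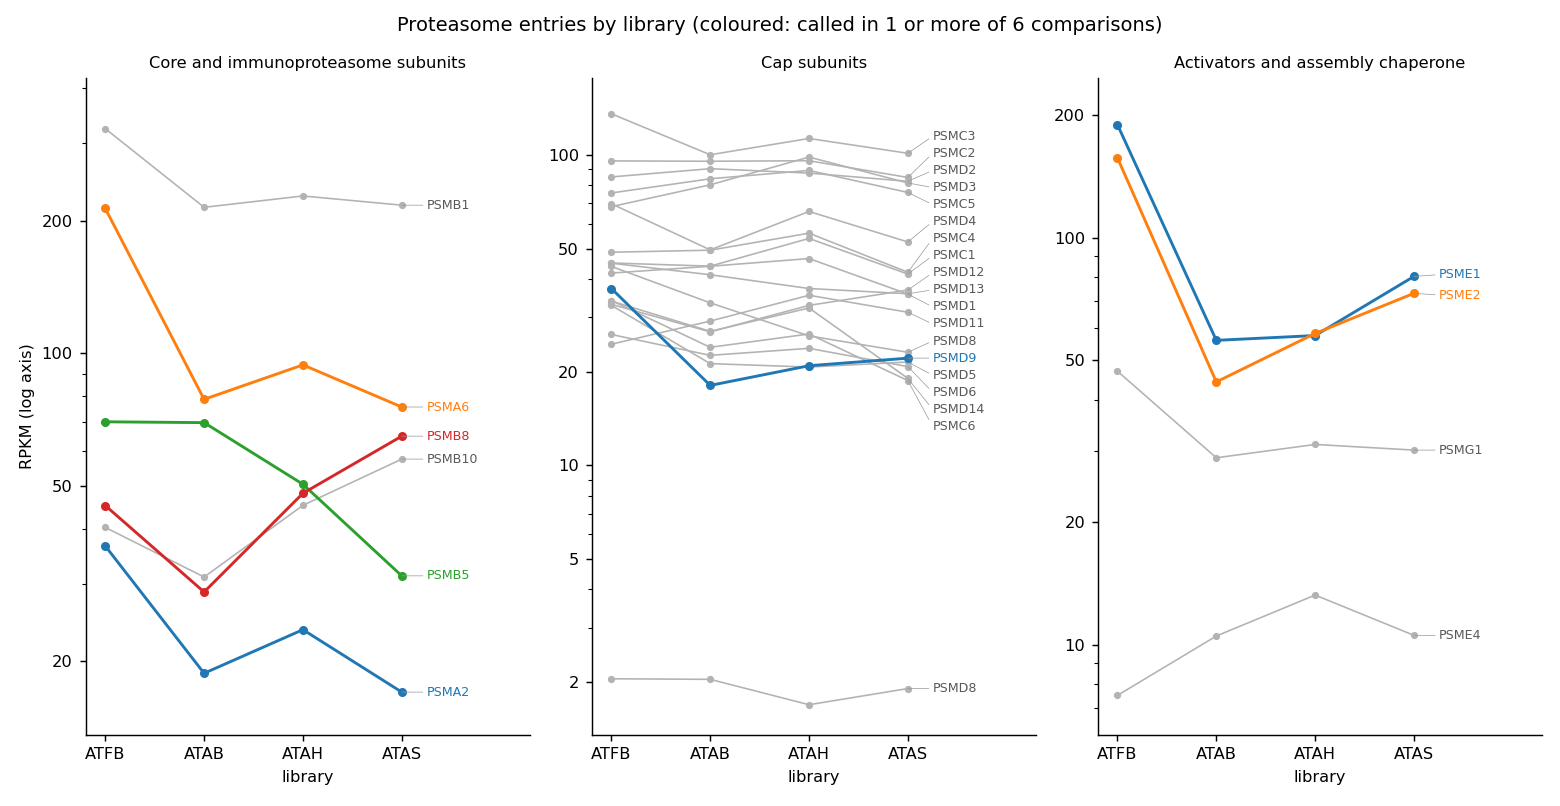
RPKM (log axis) of proteasome entries with at least 100 reads in the 4 libraries, in panels for core and immunoproteasome, cap, and activators with the assembly chaperone; each point is 1 library, lines only join the points of 1 entry, and colours mark entries called in at least 1 comparison. PSME1 and PSME2 drop from 189.7 and 157 RPKM in ATFB to 80.4 RPKM or less in the adult libraries, PSMB5 and PSMB8 cross between ATAB and ATAS, and most cap lines are nearly level.

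Among the conjugating enzymes, the UBE2D3-like entry, of the family that works with many ligases, had the highest level, with 208 RPKM in ATFB and 86.9, 107 and 109 in the bull, heifer and steer libraries. It was called lower in ATAB (log2 ratio -1.26, FDR = 1.37e-270, exact binomial test), and at -0.96 and -0.94 it lay just under the fold in ATAH and ATAS, where it was called with TMM factors. Other entries held 40.9% of its windows, and UBE2D2 is nearly the same over the catalytic stretch above. UBE2D2 itself had 89.0, 55.1, 63.6 and 55.2 RPKM and was not called. UBE2E1, which like UBE2D2 and UBE2D3 serves many RING ligases, had 79.7 RPKM in ATFB and 33.5, 40.1 and 42.2 in the adult libraries. It too was called lower in ATAB (log2 ratio -1.25, FDR = 1.58e-83) and lay at -0.99 and -0.92 in ATAH and ATAS, where it was called with TMM factors, DESeq2 size factors and ACTB. UBE2E3, its closest relative among the members, had 53.8, 29.98, 28.8 and 28.6 RPKM with ratios of -0.84, -0.90 and -0.91, below the fold, and was called lower in ATAH and ATAS under the same 3 scalings and in ATAB with ACTB. The catalytic stretches of UBE2E1 and UBE2E3 had 26 of 33 bases in common.

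The enzymes called higher in adult libraries were less abundant. UBE2H, which acts with a multi-subunit ligase known from red cell maturation, had 5.56 RPKM in ATFB and 13.0, 15.6 and 19.6 in the bull, heifer and steer libraries, from 99, 245, 284 and 355 reads. All 3 adult libraries were called higher, with log2 ratios of 1.23, 1.49 and 1.82 (FDR = 6.43e-13, 4.01e-20 and 6.74e-33, exact binomial test). The call in ATAB was lost with ACTB as the scaling gene. UBE2D4 had 10.7 RPKM in ATFB and 25.3, 18.6 and 25.6 in the bull, heifer and steer libraries, and was called higher in ATAB (1.24, FDR = 3.26e-30) and ATAS (1.25, FDR = 1.22e-30), the latter not with ACTB as the scaling gene. The UBE2D family thus held a member called lower in ATAB, the UBE2D3-like entry, and a member called higher there, UBE2D4. UBE2O, a large enzyme that joins conjugating and ligase functions, had 2.10, 3.82, 4.99 and 4.67 RPKM and was called higher in ATAH (1.25) and ATAS (1.16). Its entry shared 48.9% of its windows with 4 other entries, neither call was kept with ACTB as the scaling gene, and the call in ATAS was also lost with DESeq2 size factors, while a call in ATAB was gained with TMM factors and with DESeq2 size factors. UBE2R2, which extends ubiquitin chains with cullin ligases, had 18.5 RPKM in ATFB and 28.7, 35.1 and 46.7 in the bull, heifer and steer libraries, and was called higher in ATAS at 1.33 (FDR = 3.62e-102).

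The remaining 23 conjugating enzyme entries were not called in any comparison. UBE2M, the NEDD8 enzyme, was among them, with 52.1, 44.4, 53.4 and 41.8 RPKM. UBE2Q2 had the smallest range of the class, with 12.1, 13.7, 13.0 and 13.8 RPKM. UBE2V1, the partner of UBE2N in making chains that signal, had 59.3, 78.1, 75.8 and 79.2 RPKM, while UBE2N had 35.3, 28.7, 28.7 and 23.9. UBE2S, which extends chains for the mitotic ligase, had 34.3, 24.7, 32.01 and 25.3 RPKM. UBE2G2, an enzyme of degradation at the endoplasmic reticulum, had the largest upward ratios of those not called, at 18.5, 29.1, 32.2 and 34.5 RPKM and ratios of 0.66, 0.80 and 0.90. The other 14 enzymes with at least 100 reads had log2 ratios to ATFB between -0.80 (UBE2G1 in ATAB) and 0.46 (UBE2J1 in ATAS), and UBE2G1 was called lower in ATAB with ACTB as the scaling gene. UBE2U had 1 read in ATFB and 0 in the adult libraries, where the floor of 3 reads is 0.116 to 0.121 RPKM. The summed level of the class was 1163 RPKM in ATFB and 876 to 963 RPKM in the adults.

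Of the proteins that bind conjugating enzymes, ARIH1, a ligase that works with UBE2L3, had 11.8 RPKM in ATFB and 11.6, 15.7 and 17.6 in the bull, heifer and steer libraries and was not called. UBE2CBP had 2.77, 1.23, 1.23 and 2.36 RPKM from 75, 35, 34 and 65 reads, and was called lower than in ATFB in ATAB (-1.18, FDR = 0.000163) and ATAH (-1.17, FDR = 0.000206, exact binomial test). With TMM and DESeq2 factors the ATAB ratio was -1.003 and -1.036, still past the fold, but its FDR was above the threshold.

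**Figure D3:**
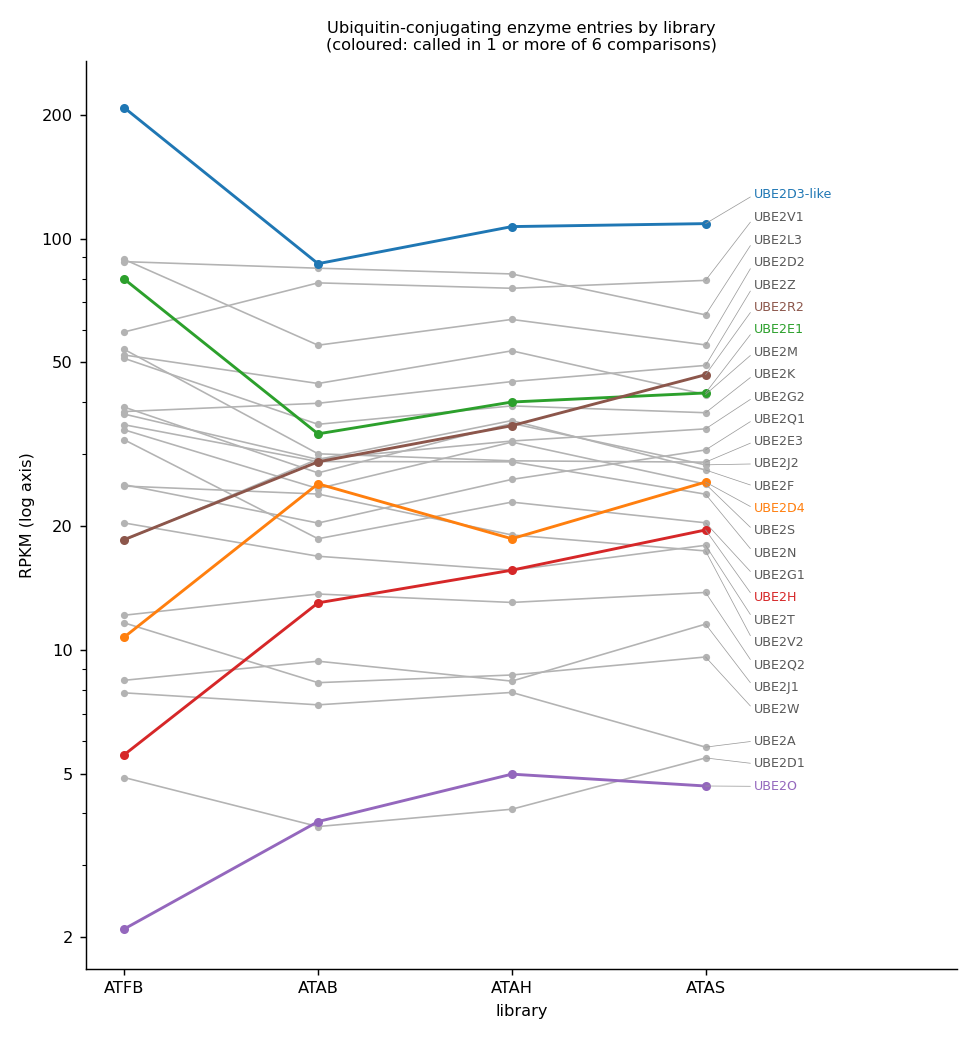
RPKM (log axis) of conjugating enzyme entries with at least 100 reads in the 4 libraries; each point is 1 library, lines only join the points of 1 entry, and colours mark entries called in at least 1 comparison. The abundant UBE2D3-like entry and UBE2E1 are highest in ATFB, and UBE2H, UBE2D4, UBE2O and UBE2R2 are lowest there.

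**Figure D4:**
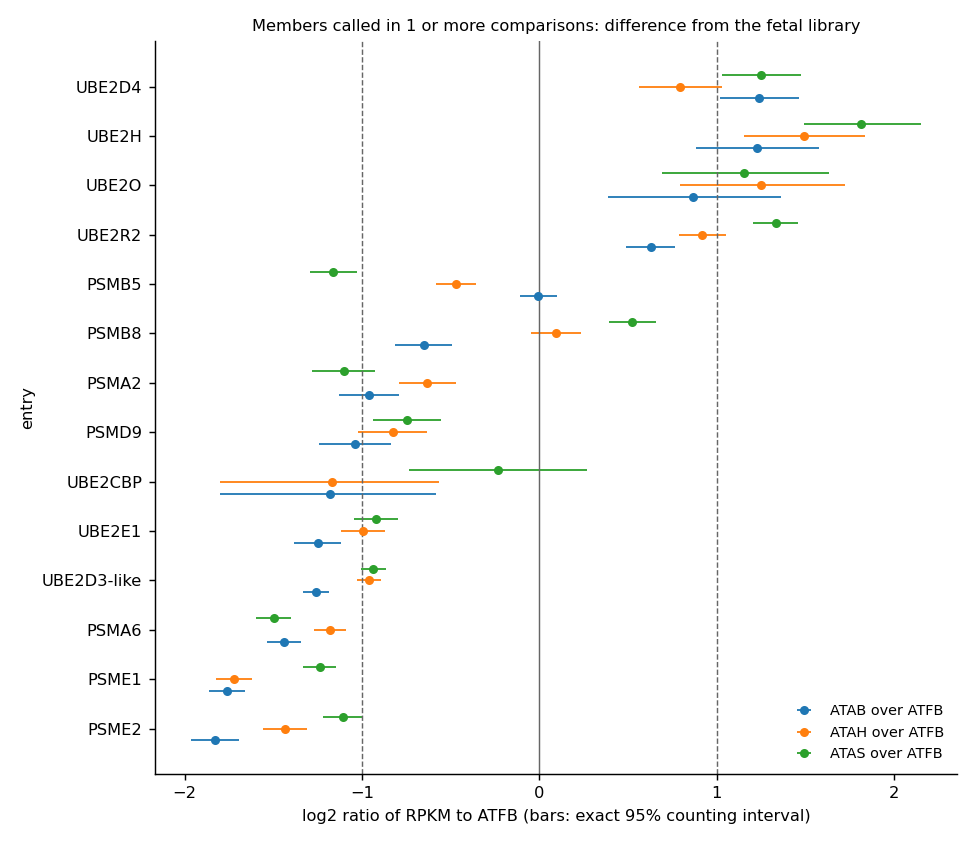
Log2 ratio of RPKM to ATFB for the 14 members called in at least 1 comparison, in ATAB, ATAH and ATAS; bars are exact 95% intervals for counting error only, and dashed lines mark ratios of -1 and 1. All 3 ratios of PSME1, PSME2 and PSMA6 lie beyond -1, all 3 of UBE2H lie beyond 1, and those of PSMB5 and PSMB8 move apart from ATAB to ATAS.

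By class, the median log2 ratio to ATFB over members with at least 100 reads was -0.78, -0.57 and -1.13 for the 4 core subunits in ATAB, ATAH and ATAS, and -1.23, -1.02 and -0.88 for the 4 activators and assembly factors. It was -0.12, -0.07 and -0.22 for the 19 cap subunits and -0.28, -0.10 and -0.38 for the 28 conjugating enzymes. With TMM factors the core medians were -0.60, -0.67 and -1.25 and the cap medians 0.05, -0.17 and -0.34, so that the cap median changed sign in ATAB. A rank correlation of the ratio with the length of the sequence, given as a description, was 0.45, 0.44 and 0.39 over the 59 members and 0.15, 0.14 and 0.18 over all entries with as many reads, the points sharing the same libraries.

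The 3 adult libraries give the only spread there is for a test of stage, and they differ in sex and castration. Against these 3, the quasi-likelihood test of edgeR for ATFB kept 59 members and called 7 at an FDR of 0.05: PSME1 (log2 fold change 1.59 in ATFB over the adults, FDR = 0.0175), PSME2 (1.47, FDR = 0.0187), PSMA6 (1.39, FDR = 0.0227), UBE2E1 (1.08, FDR = 0.0281), UBE2D3-like (1.08, FDR = 0.039) and PSMD9 (0.90, FDR = 0.042) were higher in ATFB, and UBE2H (-1.49, FDR = 0.0249) was lower. Of all 25584 entries tested, 8.39% were called higher in ATFB and 9.83% lower. In each of these 7 genes all 3 adult levels lay on the same side of the ATFB level, which the test itself favours. Members it did not call, such as PSMB1, PSMG1 and UBE2V1, showed the same. Leaving out ATAH left 0 members called, with 2321 of 24874 entries called, and leaving out ATAB gave 12, with 7123 of 25146 entries called. The lone fetal library was assumed to vary like the adult ones.

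Few members reached the fold for a call between adult libraries. Between ATAB and ATAH, 0 of 60 members were called, beside 4.14% of all entries called higher in ATAH and 1.23% lower. Between ATAH and ATAS, 0 of 62 were called, beside 1.52% of entries higher in ATAS and 1.48% lower. Between ATAB and ATAS, 1 of 62 members was higher in ATAS, PSMB8, and 1 was lower, PSMB5, beside 6.86% and 1.87% of entries. Without the fold, 24 of 60, 27 of 62 and 24 of 62 members had an FDR of 0.001 or less by the exact binomial test, against 18.8%, 13.6% and 24.4% of all entries tested and 32.7%, 23.9% and 42.3% of entries with at least 100 reads. Many differences below the fold between these pools thus exceeded counting error, which does not include the scaling. The median log2 ratio to ATAB over all entries with at least 100 reads was 0.267 for ATAH and 0.325 for ATAS with library totals. With TMM factors it was -0.01 and 0.03, and members above 0 in ATAH over ATAB went from 44 to 18 of 59. With library totals, the median size of the log2 ratio over the 59 members was 0.21 between ATAB and ATAH, 0.20 between ATAB and ATAS and 0.24 between ATAH and ATAS, against 0.38, 0.48 and 0.28 over all entries with at least 100 reads. With TMM factors these sizes were 0.135, 0.294 and 0.225 over the members and 0.314, 0.384 and 0.278 over the entries. Taking the biological coefficient of variation as 0.4, none of the 63 members was called in any of the 6 comparisons by the edgeR exact test, while 5 to 278 entries per comparison still were.

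Genes at other steps of the pathway, from lists chosen by role, moved in both directions. Of 11 genes found among 19 for ubiquitin, its activating enzymes and modifiers, UBA7 was called lower in ATAB than in ATFB and UBA3 lower in ATAS. UBA7, the activating enzyme of the interferon-induced modifier ISG15, had 87.5 RPKM in ATFB and 19.02, 49.5 and 79.6 in the bull, heifer and steer libraries, and exceeded its ATAB level by enough for a call in both other adult libraries. UBA1, the main ubiquitin-activating enzyme, had 66.9, 85.4, 80.7 and 77.5 RPKM, with no call. Of 30 ligase genes found among 45, 5, 8 and 11 were called higher in ATAB, ATAH and ATAS than in ATFB and 1, 1 and 2 lower, where 9.51%, 13.9% and 15.5% of all entries were called higher and 13.1%, 9.83% and 10.5% lower. Among all entries with at least 100 reads, 15.7%, 22.5% and 24.8% were called higher. The examples with the largest ratios were CUL5, a cullin scaffold (0.94 RPKM in ATFB and 4.38 to 5.86 in the adults), XIAP, an inhibitor of apoptosis (1.16 and 4.24 to 7.02), and CBLB (1.97 and 4.87 to 9.74), while CDC20, an activator of the mitotic ligase that is also among the cycling markers, was lower in each adult library. Of 23 deubiquitinating enzymes and shuttles found among 32, 4, 9 and 7 were called higher and 1, 0 and 0 lower, beside the same shares of all entries. That list also holds the segregase VCP and the transcription factors NFE2L1 and NFE2L2, of which VCP was called higher in ATAH and NFE2L1 in ATAH and ATAS. TNFAIP3, a deubiquitinating enzyme that limits inflammatory signalling, was at 2.26 RPKM in ATFB and 10.4, 13.6 and 20.4 in ATAB, ATAH and ATAS. Of the 14 activator, inhibitor and assembly genes listed, 3 besides the members were found and none was called.

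The immunoproteasome was set beside genes of antigen processing and of the interferon response, some of which share its known regulation. Of 14 antigen processing genes found among 21, 5 were called higher and 0 lower in ATAS than in ATAB, and of 15 interferon response genes found among 30, 12 were called higher and 0 lower. Of all entries 6.86% were called higher and 1.87% lower in that comparison, and of entries with at least 100 reads 11% and 2.93%. Against ATFB, 3 antigen processing genes were called higher and 2 lower in ATAB, 4 and 3 in ATAH, and 6 and 2 in ATAS, and the lower ones were BOLA, CALR, CTSS and PDIA3. The class I entry BOLA had 63.6, 20.1, 73.6 and 30.3 RPKM, another order than that of PSMB8. NLRC5, the activator of class I genes, had 0.49 RPKM in ATFB and 3.17, 7.38 and 9.96 in the bull, heifer and steer libraries. CD74 had 206, 624, 899.7 and 1663 RPKM, and IDO1, an enzyme induced by interferon gamma, had 3.26, 13.3, 76.2 and 182.5 RPKM. PSMB8 and PSMB10 had the same order of the adult libraries as these 3 genes, which were lowest in ATFB, whereas PSMB8 and PSMB10 were lowest in ATAB. GBP5 (8.56, 3.11, 9.09 and 19.2 RPKM) and IFIT1 (15.1, 4.74, 19.5 and 36.4 RPKM) were, with library totals, the 2 genes of 15 in the interferon response list with the order of PSMB8 in all 4 libraries. That order rests on the log2 ratio of ATAH to ATFB in PSMB8, which was 0.092 and changed sign under the other scalings. Counts of genes in this order thus depend on the scaling. By any amount, 7 of the 15 genes of that list were lower in ATAB than in ATFB. Against ATFB, the interferon response list had 2 genes called higher and 6 lower in ATAB, 5 and 2 in ATAH, and 10 and 1 in ATAS. Leukocyte markers (15 found of 22, CD79A at 0 in ATAB) summed to 199 RPKM in ATFB and 328.5, 309 and 488 in the bull, heifer and steer libraries, with 4 of 15 called higher in ATAS than in ATAB. The summed level of endothelial markers (7 found of 8, none at 0) was lowest in ATAB and highest in ATAS as well, with 2 of the 7 genes in the order that PSMB8 had over the 4 libraries with library totals, and 2 of 7 were called higher in ATAS than in ATAB. The part of both cell types in the levels of PSMB8, PSMB10, PSME1 and PSME2 was not tested.

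**Figure D5:**
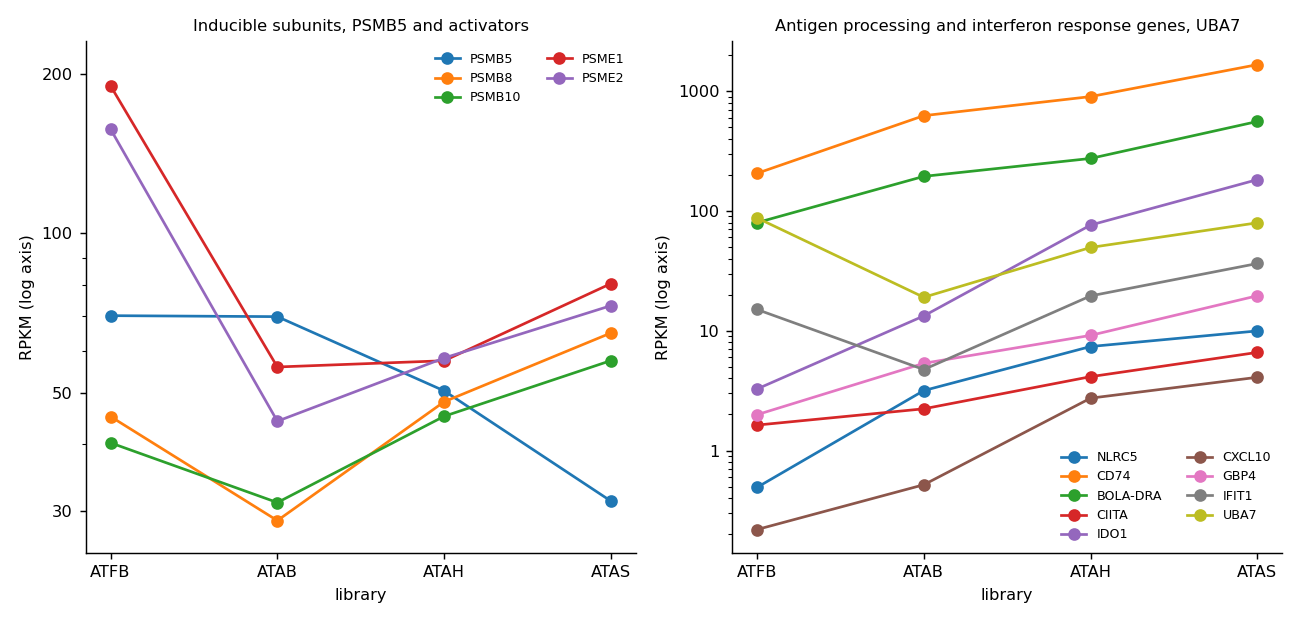
RPKM (log axis) in the 4 libraries of PSMB5, PSMB8, PSMB10, PSME1 and PSME2 (left) and of UBA7 and the antigen processing and interferon response genes with the largest called ratios (right); each point is 1 library and lines only join the points of 1 gene. PSMB8 and PSMB10 are lowest in ATAB and highest in ATAS, PSMB5 is lowest in ATAS, and IDO1 runs from 3.26 RPKM in ATFB to 182.5 RPKM in ATAS.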

How the data were processed

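RNA of 4 pooled subcutaneous adipose samples was sequenced. The authors aligned reads with SOAPaligner (their methods name the bosTau7 genome as reference, whereas the files list UniGene sequences, and how one led to the other is not given in the sources used here) and deposited, per entry, counts of uniquely aligned reads, RPKM values normalized by them for length and total reads, and the percent of each sequence covered. The submitters' processing notes name CASAVA, and strand was not used. The members and gene lists were chosen with earlier results of these data known. The deposited counts were compared between libraries by exact two-sided binomial tests (scipy 1.17.1), adjusted by Benjamini-Hochberg over all entries with a read, and called at an FDR of 0.001 and a log2 ratio of deposited RPKM of 1. ATFB was tested against the 3 adult libraries with the edgeR 4.0.16 quasi-likelihood test (TMM factors, filterByExpr, FDR 0.05). DESeq2 1.42.0 served as an alternative. Both scripts were tested on simulated data. Intervals (95%) and the floor of 3 reads cover counting error only. Since each group is 1 library, p-values compare libraries, not conditions.

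Named with values were the immunoproteasome genes, members called with at least 100 reads, those with the highest and lowest mean RPKM of each class, and the 2 with the smallest range in each class. Other members and genes named (PSMC1, PSMC4, PSMC5, PSMC6, PSMD1, the remaining PSMD genes, PSMD8, PSMD14, UBE2D2, UBE2E3, UBE2G1, UBE2G2, UBE2J1, UBE2N, UBE2S, UBE2V1, UBA1, and of the lists BOLA, CALR, CTSS, PDIA3, GBP5, VCP, NFE2L1, NFE2L2, MKI67, VWF, EMCN, HBG2, ALAS2, EPB42, TFRC, ANK1 and XPO7) were picked after their values were seen. Lists of other genes are given by counts with the largest called ratios. Sequences were taken from the UniGene sequences deposited with the counts. Some items are not reported here by name, though they are counted.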

Additional observations from a re-analysis of the deposited data

Results flagged for a closer look

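Of the pathway and interferon genes set beside the members, IFIT1, GBP5 and UCHL1 were called in opposite directions against ATFB in different adult libraries. IFIT1, an interferon-induced gene, had a log2 ratio to ATFB of -1.665 in ATAB and 1.274 in ATAS, with 15.1 RPKM in ATFB and 4.74, 19.5 and 36.4 in the bull, heifer and steer libraries, and the direct comparison of ATAS with ATAB gave 2.94 (FDR = 2.68e-143, exact binomial test). GBP5, an interferon-induced guanylate-binding protein, had -1.459 in ATAB and 1.166 in ATAS, with 8.56 RPKM in ATFB and 3.11, 9.09 and 19.2 in the bull, heifer and steer libraries, and ATAS exceeded ATAB by 2.62 (FDR = 1.08e-88, exact binomial test). UCHL1, a deubiquitinating enzyme, had -1.753 in ATAB and 1.245 in ATAH, with 18.2 RPKM in ATFB and 5.41, 43.2 and 10.01 in the bull, heifer and steer libraries, and ATAH exceeded ATAB by 2.998 (FDR = 1.78e-133, exact binomial test). Each rests on 1 library per group, and none of the 63 members was called in opposite directions against ATFB.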

How the results depend on the processing

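Of the 26 calls of single members, 23 were kept with TMM factors, 22 with DESeq2 size factors and 22 when ACTB set the scale, and none reversed. The counts of members called in ATAB, ATAH and ATAS against ATFB were 9, 6 and 9. They became 21, 18 and 21 at a fold of 1.5, 2, 1 and 1 in the edgeR exact test when the biological coefficient of variation was taken as 0.2, and 0, 0 and 0 with 0.4. Over all entries, 2652 of 34096, 3367 of 34589 and 3906 of 34474 were called with 0.2, and 184, 229 and 278 with 0.4. The counts over all entries at a fold of 1.5 are not given here. With ACTB the count of members in ATAH was 10, beside 8443 of 34589 entries. Between ATAB and ATAS the 2 calls became 1 with TMM factors, 1 with DESeq2 size factors, 0 with a coefficient of 0.2, 0 with 0.4 and 8 at a fold of 1.5. Under the TMM, DESeq2, 0.2 and 0.4 settings, 2289, 2297, 420 and 5 of 33724 entries were called. At a fold of 1.5 the counts of members were 1 between ATAB and ATAH and 2 between ATAH and ATAS. A filter of 10 reads and 1 entry per symbol left all 6 counts as they were. In the edgeR test of ATFB against the adults, the 7 calls became 4 with library totals and ranged from 0 (without ATAH) to 12 (without ATAB) when an adult library was left out. The cause of these shifts was not tested, beyond the wider error or lower fold that an alternative itself sets. No paired analysis was possible because each group is 1 library. Depth limits the members with few reads (PSMB11, LOC782521, UBE2U and the low PSMD4 entry), for which no difference was detectable.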
